A study of Mus musculus with 17 samples.

Results

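A set of 10 transcripts that mark hepatic stellate cells and the fibrous matrix were followed through bulk RNA sequencing of sorted mouse Kupffer cells (KCs), liver macrophages that live in the sinusoids. They were found by symbol in the deposited tables, and all 10 were present among the 25124 genes listed. The 10 are *Lrat*, *Reln* and *Colec11*, which mark stellate cells, *Des*, *Pdgfrb* and *Rgs5*, which stellate cells share with other pericytes, and the matrix genes *Dcn*, *Col1a1*, *Col1a2* and *Col3a1*.

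The 17 samples fall into 3 comparisons. TIM4+CD206+ KCs, the major subset, and TIM4+CD206hi KCs, the minor subset, each had 3 samples from untreated livers, called tumour-free here. Each also had 3 samples from livers 2 weeks after tumour cells had been injected into the portal vein, called tumour-bearing. Whether both subsets came from the same livers is not in the labels. The third comparison held untreated Id3f/f (n = 3) and Clec4fCreId3f/f (n = 2) mice, both carrying the floxed *Id3* alleles, in which Cre under *Clec4f*, a KC gene, removes *Id3* from KCs and leaves it in other liver cells. Ages were not given in the labels, and the sort that the study describes keeps CD45+ F4/80+ TIM4+ cells, whereas stellate cells are CD45-. Nothing in the labels says which animals gave which sample, so the p-values measure the spread between these samples.

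Stellate cells are the pericytes of the liver sinusoid. They lie between the endothelium and the hepatocytes, store vitamin A as retinyl esters and keep their processes close to KCs. On injury they lose this store and turn into matrix-producing myofibroblasts, which is why a liver's stellate markers and its collagens are usually read side by side.

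The values are on a log2 scale, on which a step of 1 is a doubling, and the tables were normalized separately, so tests were made only within a table. They have the features of DESeq2's regularized log, which pulls values of genes with few reads towards the gene's mean. Differences and spreads of transcripts at low values may therefore be too small. KC markers were abundant in every sample: all 11 passed the filter on low values, and their summed level (the sum of 2 to the power of the deposited value) made up 24910 to 49171 ppm of the sample's total. The 10 stellate and matrix transcripts made up 12.3 to 20.5 ppm in TIM4+CD206+ KCs, 21.6 to 58.2 in TIM4+CD206hi KCs and 41.6 to 53.7 in the *Id3* samples. Hepatocyte markers were present throughout (2740 to 5214 ppm), and sinusoidal endothelial markers reached 5522 to 13356 ppm in TIM4+CD206hi KCs against 529 to 999.6 in TIM4+CD206+ KCs. The hepatocyte figure of TIM4+CD206+ KCs rests mostly on 1 gene, *Trf* (mean of 17.04 in tumour-free samples). *Id3* was at 12.46 to 12.82 in Id3f/f and at 9.82 and 9.83 in Clec4fCreId3f/f samples, a fall of 2.80 on the log2 scale (adjusted p = 1.4e-06). In the same samples *Xist* was at 6.33 to 6.38 against 9.76 and 9.84 and the Y-linked *Ddx3y* at 9.43 to 9.46 against 7.0 and 7.01, so sex and genotype cannot be told apart.

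In the GENCODE annotation of GRCm38 (mm10, the build in the submitters' processing notes), the matrix genes are *Col1a1* at chr11:94936224-94953042, *Col1a2* at chr6:4504814-4541544, *Col3a1* at chr1:45311538-45349706 and *Dcn* at chr10:97479609-97518143, all on the plus strand. The stellate markers *Lrat* at chr3:82892579-82903973, *Reln* at chr5:21884454-22344702 and *Colec11* at chr12:28594173-28623377 lie on the minus strand. *Des* at chr1:75360329-75368579, *Pdgfrb* at chr18:61045150-61085061 and *Rgs5* at chr1:169655501-169695813 are on the plus strand. The values count reads over exons, 1441 bases in all for *Colec11* and 11699 for *Reln*. Exons of *Col3a1*, *Reln* and *Des* overlap those of *Gm47302* (141 bases), *Gm10475* (246 bases) and *Gm15179* (220 bases), and the library kit does not mark strand, so reads in those bases cannot be assigned to 1 of the pair.

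With tumours, TIM4+CD206hi KC samples held less of 2 stellate markers and of decorin, while no fibrillar collagen passed the test in either direction. *Lrat*, *Colec11* and *Dcn* fell 3.19 to 3.54-fold, *Reln* and *Rgs5* were lower in every tumour-bearing sample without passing the test, and *Col1a2* was the only member with a higher value in every tumour-bearing sample, also without passing it. *Lrat* and *Colec11* were also lower in every tumour-bearing TIM4+CD206+ sample, and none of the 10 passed in that subset. Deletion of *Id3* moved none of them past the threshold.

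*Lrat* encodes the acyltransferase that makes retinyl esters and so fills the vitamin A droplets by which stellate cells are known. In TIM4+CD206hi KCs it was at 7.73, 7.66 and 7.30 in the tumour-free samples and at 5.48, 5.51 and 6.42 in the tumour-bearing ones, with a gap between the groups. The difference was -1.76 ± 0.31 (log2, SE, adjusted p = 0.0154, limma with Benjamini-Hochberg adjustment over all genes tested). The TIM4+CD206+ samples had *Lrat* at 4.48, 4.0 and 4.62 without and at 3.69, 3.72 and 3.75 with tumours. The groups again did not overlap, and the difference of -0.65 ± 0.18 missed the threshold (adjusted p = 0.109). The values of the 3 tumour-bearing samples were nearly equal and low, where a regularized log can shrink a difference. The sizes of the difference in the subsets therefore cannot be compared directly.

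*Colec11* encodes collectin-11, a secreted lectin of the complement lectin pathway. It was at 7.92, 6.90 and 6.79 in tumour-free and 4.90, 5.45 and 5.78 in tumour-bearing TIM4+CD206hi samples, a difference of -1.82 ± 0.37 (adjusted p = 0.0290). The values were 6.58, 5.88 and 6.52 against 5.47, 5.45 and 5.73 in TIM4+CD206+ KCs, a difference of -0.77 ± 0.26 (adjusted p = 0.169). The groups were apart in both subsets. *Reln*, the secreted glycoprotein reelin, was at 6.20, 4.94 and 5.85 against 4.41, 4.36 and 4.82 in TIM4+CD206hi KCs, so that every tumour-bearing sample lay below every tumour-free one (-1.14 ± 0.34, adjusted p = 0.110). Over the 6 TIM4+CD206+ samples it was at 3.73 to 5.10, with 1 sample of each group near 5 and the other samples below 4.

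**Figure D1:**
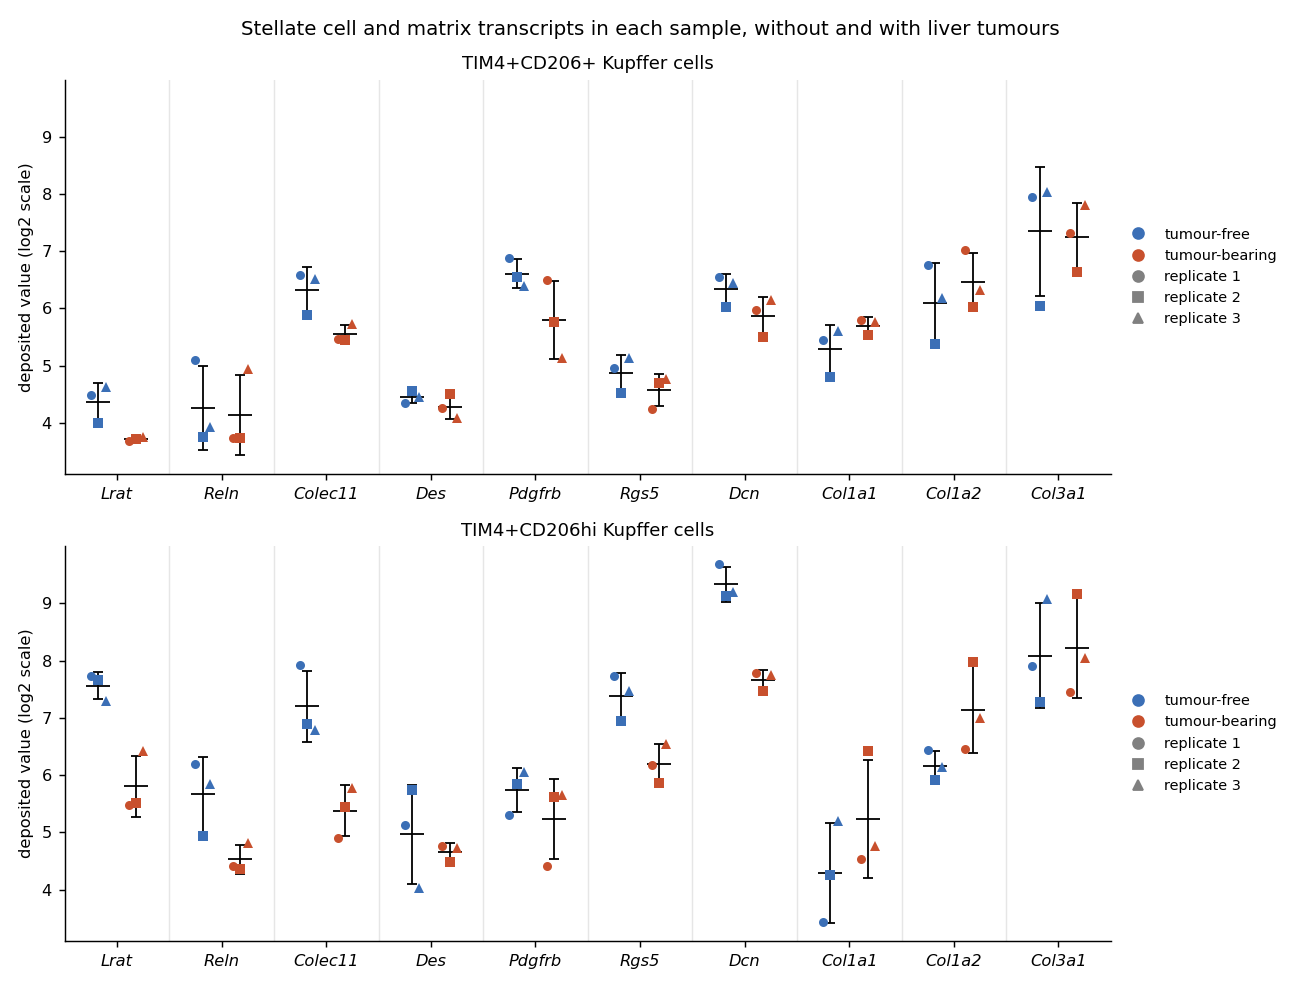
Deposited log2-scale value of each transcript in each sample of TIM4+CD206+ (top) and TIM4+CD206hi (bottom) KCs, 3 tumour-free (blue) and 3 tumour-bearing (red) per subset; marker shapes give the replicate number, and black bars give the mean ± SD. In the lower panel *Lrat*, *Reln*, *Colec11*, *Rgs5* and *Dcn* are lower in every tumour-bearing sample and *Col1a2* is higher in every one; in the upper panel only *Lrat* and *Colec11* have groups that do not overlap.

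Among the pericyte genes, *Rgs5*, a regulator of G protein signalling typical of vessel-associated pericytes, had the largest difference in TIM4+CD206hi KCs and *Pdgfrb* in TIM4+CD206+ KCs. *Rgs5* was at 7.73, 6.95 and 7.47 in tumour-free and 6.17, 5.86 and 6.55 in tumour-bearing TIM4+CD206hi samples, apart in all of them, and the difference of -1.19 ± 0.29 lay just outside the threshold (adjusted p = 0.0549). Its range in TIM4+CD206+ KCs was 4.52 to 5.13 without and 4.25 to 4.77 with tumours (-0.30 ± 0.23, adjusted p = 0.586). *Pdgfrb*, the receptor through which platelet-derived growth factor drives stellate cells to divide, overlapped between groups in both subsets. It was at 6.88, 6.55 and 6.39 against 6.49, 5.77 and 5.14 in TIM4+CD206+ KCs (-0.81 ± 0.35, adjusted p = 0.291) and at 5.31 to 6.05 against 4.42 to 5.66 in TIM4+CD206hi KCs (-0.51 ± 0.38, adjusted p = 0.470). *Des*, the intermediate filament protein desmin, overlapped as well, with differences of -0.17 ± 0.17 and -0.30 ± 0.41 (adjusted p = 0.684 and 0.690).

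The matrix genes did not move as a group. *Dcn* encodes decorin, a small proteoglycan that coats collagen fibrils and binds TGF-β. It was at 9.68, 9.12 and 9.20 in tumour-free and at 7.78, 7.46 and 7.74 in tumour-bearing TIM4+CD206hi samples, and its difference of -1.67 ± 0.23 had the smallest standard error of the 10 (adjusted p = 0.00493). *Col1a2*, a chain of type I collagen, was at 6.44, 5.92 and 6.14 against 6.46, 7.97 and 7.0, so that the tumour-bearing samples were higher, the nearest pair by a margin of 0.02 (0.98 ± 0.39, adjusted p = 0.218). *Col1a1*, the other chain of type I collagen, was at 3.44, 4.25 and 5.19 against 4.53, 6.42 and 4.77, and the groups overlapped (0.95 ± 0.60, adjusted p = 0.399). *Col3a1*, type III collagen, was at 7.27 to 9.08 against 7.45 to 9.16 (0.13 ± 0.57, adjusted p = 0.904). Tumour-bearing replicate 2 had the highest value of its group for all 3 collagens.

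Among TIM4+CD206+ samples the matrix genes had overlapping groups throughout. *Dcn* was at 6.54, 6.02 and 6.44 against 5.98, 5.50 and 6.14 (-0.46 ± 0.26, adjusted p = 0.441). The differences of *Col1a1*, *Col1a2* and *Col3a1* were 0.41 ± 0.25, 0.35 ± 0.40 and -0.09 ± 0.55 (adjusted p = 0.481, 0.740 and 0.963). Tumour-free replicate 2 had the lowest value of its group for each of the 4.

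Counted over the 10, 3 were called lower and 0 higher in TIM4+CD206hi KCs, where 2.03% of the 14561 genes tested were called lower and 5.21% higher. Groups that did not overlap were seen for 5 members in the lower direction and 1 in the higher, against 15.2% and 15.6% of all genes. Limma called 0 of 10 in TIM4+CD206+ KCs, beside 0.998% of the 13233 genes tested called lower and 2.55% higher. *Lrat* and *Colec11* had an unadjusted p under 0.05 there, which 7.84% of all genes reached in the lower direction, and they were also the 2 members whose groups did not overlap, in the lower direction (10.5% of all genes; 12.9% in the higher, with 0 members). The median difference of the 10 was -0.82 in TIM4+CD206hi and -0.23 in TIM4+CD206+ KCs, against 0.03 and 0.02 over all genes tested. Whether the subsets differed in this was not tested, because their tables were normalized separately.

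In TIM4+CD206hi KCs *Dcn* was called under all 12 alternative settings, whereas *Lrat* and *Colec11* passed in some of the fits with 1 sample fewer and not in others. Without tumour-free replicate 1, or without tumour-bearing replicate 1 or 2, *Dcn* was the only member called, *Lrat* having an adjusted p of 0.0747, 0.0844 and 0.0838 and *Colec11* of 0.0697, 0.127 and 0.112. The differences stayed of similar size in these fits, -1.68, -1.60 and -1.61 for *Lrat* and -1.46, -1.58 and -1.86 for *Colec11*. Without tumour-bearing replicate 3, *Colec11* was no longer called (-2.02, adjusted p = 0.0584), while the fit lacking the second tumour-free sample called 5, *Reln* (0.00635) and *Rgs5* (0.0111) joining them. Leaving tumour-free replicate 2 out of the TIM4+CD206+ fit called 2 members lower, *Lrat* (-0.83, adjusted p = 0.0228) and *Colec11* (-1.0, adjusted p = 0.0480).

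**Figure D2:**
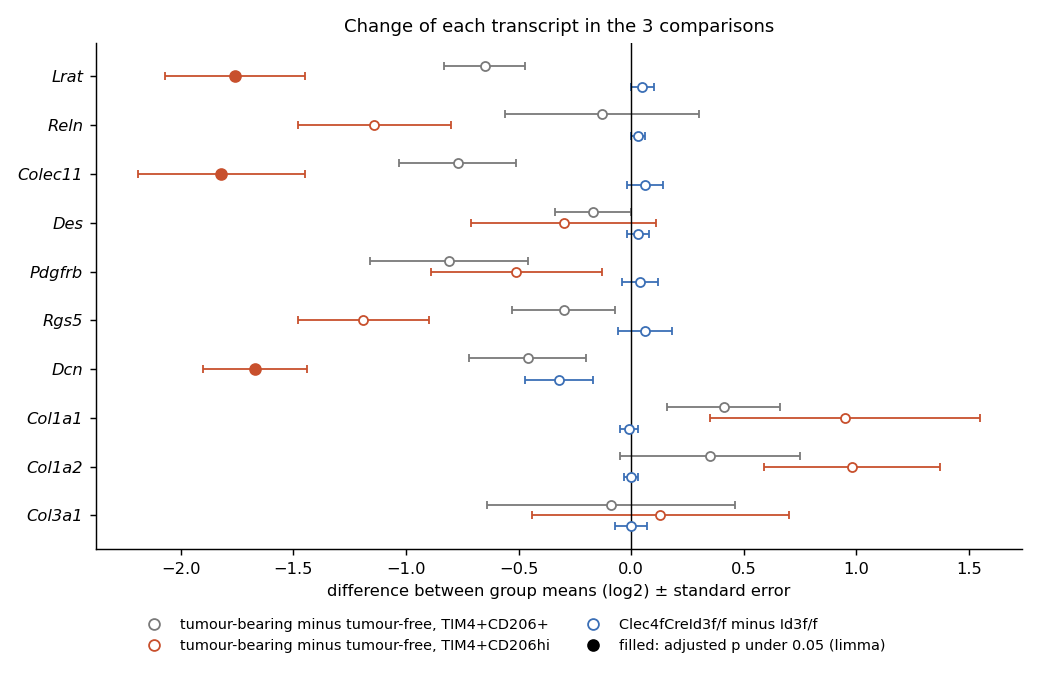
Difference between group means (log2) with its standard error for each transcript in the 3 comparisons; filled points passed the test at an adjusted p under 0.05. The 3 filled points are *Lrat* (-1.76), *Colec11* (-1.82) and *Dcn* (-1.67) in TIM4+CD206hi KCs, and the blue points of the *Id3* comparison lie between -0.32 and 0.06.

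The stellate markers were also set against the collagens within each sample. The mean of *Lrat*, *Reln* and *Colec11* minus the mean of the 3 collagens was 1.35, 0.69 and -0.16 in tumour-free and -1.22, -2.74 and -0.93 in tumour-bearing TIM4+CD206hi samples. For TIM4+CD206+ samples it was -1.32, -0.86 and -1.58 against -2.41, -1.76 and -1.82. *Dcn*, grouped with the collagens as a matrix gene at the outset, was left out of this quantity after its values had been seen, so its direction was set in part by that choice and it is given as a description with no test. The tumour-bearing samples lay below the tumour-free ones in both subsets, and in TIM4+CD206hi KCs the shift was -2.26.

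Over the 12 samples of both subsets, each gene centred on its mean in its own table, *Lrat*, *Colec11*, *Rgs5* and *Dcn* went together, with Pearson r from 0.90 to 0.95 for each pair. The collagens went together less closely (r from 0.60 to 0.70), and between collagens and stellate markers r ran from -0.58 (*Col1a1* with *Lrat*) to 0.34 (*Col3a1* with *Reln*), *Col3a1* and *Lrat* having r = -0.00. These samples share their tumour contrast, so the correlations restate it in part and carry no p. Outside the 10, the genes with a pattern most like the mean of *Lrat*, *Reln* and *Colec11* among 13100 genes were *Gm4788*, *Fosb* and *AU021063* (r = 0.96, 0.94 and 0.94), followed by *Cd99l2*, *Arhgap23*, *Ackr4*, *Klf7*, *Amotl1*, *Mbl2* and *A330009N23Rik* at 0.92 or 0.93. The mean of the 4 matrix genes was matched best by *Lyplal1* (r = 0.89), *Oxnad1* (0.86) and *G6pc3* (0.85), followed by *Cisd3*, *Kpna3*, *Plin2*, *Pex11g*, *Higd2a*, *Rpl28* and *Atp5g2* at 0.79 to 0.83.

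RefSeq's promoter table (GRCm38.p6) held 7 of the 10 genes, all but *Col1a1*, *Dcn* and *Pdgfrb*. The sequence before the start is shown for 3 genes whose values went together and for *Col3a1*, whose values did not follow them, each 5′ to 3′ on the gene's strand. The coordinates are chr3:82903975-82904224 (minus) for *Lrat*, chr12:28623378-28623580 (minus) for *Colec11*, chr1:169655251-169655500 (plus) for *Rgs5* and chr1:45311288-45311537 (plus) for *Col3a1*. All 4 windows lie outside annotated exons, 47 exonic bases next to the start of *Colec11* having been left out. Capitals mark 3 motifs on either strand, the TATA box with the letters TATAAA, the box with the letters CCAAT and the GC box with the letters GGGCGG, and none of the marked runs overlaps another.
Lrat: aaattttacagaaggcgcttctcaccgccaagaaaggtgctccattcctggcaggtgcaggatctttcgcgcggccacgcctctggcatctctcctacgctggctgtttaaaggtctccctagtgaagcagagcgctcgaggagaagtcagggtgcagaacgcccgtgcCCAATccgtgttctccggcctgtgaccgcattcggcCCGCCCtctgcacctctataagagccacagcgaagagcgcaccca
Colec11: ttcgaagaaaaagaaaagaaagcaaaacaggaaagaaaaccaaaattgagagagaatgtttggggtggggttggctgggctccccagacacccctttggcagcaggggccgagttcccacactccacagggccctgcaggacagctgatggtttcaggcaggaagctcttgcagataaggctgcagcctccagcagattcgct
Rgs5: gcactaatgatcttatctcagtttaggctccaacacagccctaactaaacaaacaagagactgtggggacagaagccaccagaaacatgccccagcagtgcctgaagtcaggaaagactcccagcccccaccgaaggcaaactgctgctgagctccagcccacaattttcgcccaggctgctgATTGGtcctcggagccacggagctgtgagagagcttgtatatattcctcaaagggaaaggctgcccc
Col3a1: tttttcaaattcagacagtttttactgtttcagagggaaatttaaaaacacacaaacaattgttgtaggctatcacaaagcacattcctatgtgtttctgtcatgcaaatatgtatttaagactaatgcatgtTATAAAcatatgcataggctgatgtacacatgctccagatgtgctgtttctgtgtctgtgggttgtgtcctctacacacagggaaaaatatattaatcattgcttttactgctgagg
The runs of capitals begin 81 bases before the start (CCAAT) and 45 bases before it (GGGCGG, reverse strand) in *Lrat*, 67 bases before it (CCAAT, reverse strand) in *Rgs5* and 117 bases before it (TATAAA) in *Col3a1*, and the *Colec11* window held none. Of the 32851 promoter windows of 250 bases in the table, 12.4% held TATAAA, 33.8% CCAAT and 32.7% GGGCGG. A match here is a description of the letters.

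Other liver cells' transcripts moved in the same samples. In TIM4+CD206hi KCs the summed level of 17 sinusoidal endothelial markers was 288020 to 452483 in tumour-free and 184490 to 229109 in tumour-bearing samples, and 5 of the 17 were called lower (median difference -0.72). Of 17 hepatocyte markers, 8 were called lower (median -1.33), with sums of 111175 to 139019 against 89421 to 104904. The 10 stellate and matrix transcripts summed to 1379 to 1971 against 722.8 to 1323, and *Lrat*, *Reln* and *Colec11* together to 326.0 to 527.0 against 95.9 to 168.9. In TIM4+CD206+ KCs the endothelial sums overlapped (20117 to 39659 against 18449 to 25445, 0 of 17 called by limma, with 3 lower and 1 higher at an unadjusted p under 0.05, and 2 called lower with the samples paired by replicate number), and the hepatocyte sums did not (168050 to 193328 against 105255 to 132136, 8 of 17 called lower, or 15 when paired). These hepatocyte sums rest mostly on *Trf*, at means of 17.04 and 16.57 against 12.91 and 10.62 for *Alb*. *Trf* itself was not called (-0.47 ± 0.19, adjusted p = 0.251, limma). The KC markers were lower as well in TIM4+CD206+ KCs, with sums of 1543670 to 1950922 against 1109042 to 1189181. There 2 of 11 were called lower and 0 higher (median -0.45). In TIM4+CD206hi KCs their sums overlapped (927803 to 1284069 against 819666 to 940264, 0 of 11 called, median -0.30). Of 14 tumour epithelial markers tested in each subset, 13 and 14 rose. The part of these other cells' RNA in the stellate and matrix values was not tested, and in bulk samples fewer cells of a type and less RNA per cell cannot be told apart.

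**Figure D3:**
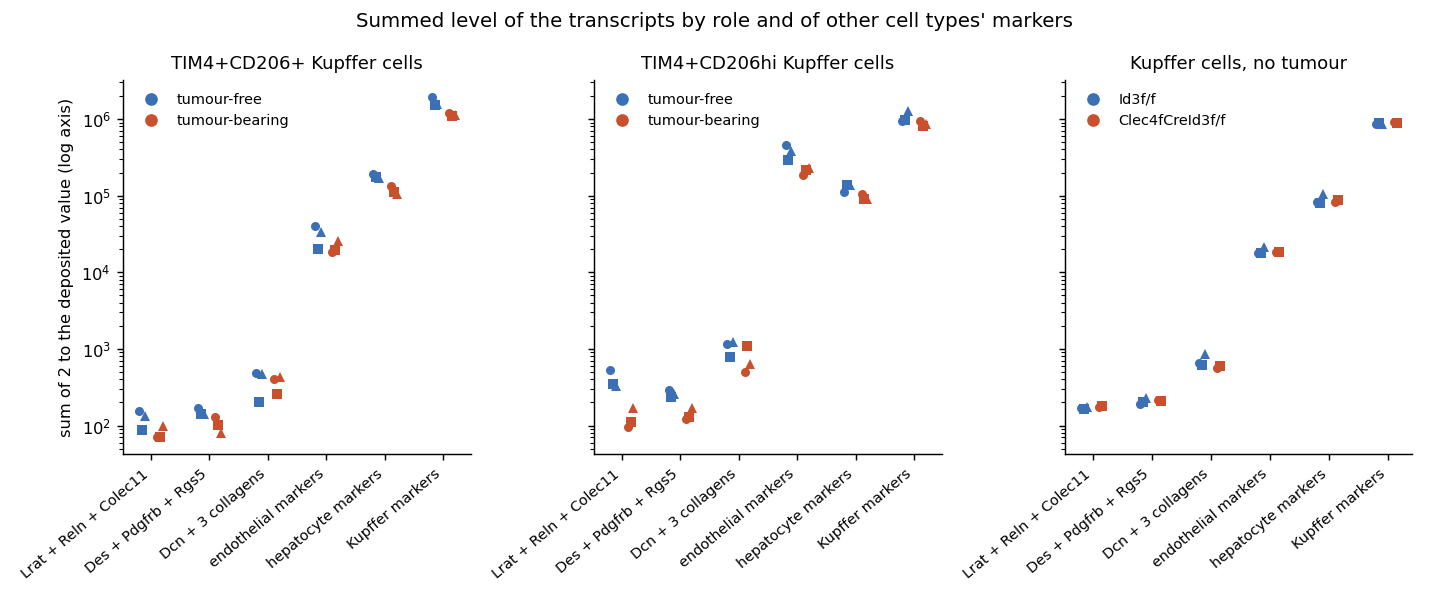
Sum of 2 to the power of the deposited value in each sample (log axis) for the stellate markers, the pericyte genes and the matrix genes, and for endothelial, hepatocyte and KC markers, in the 3 tables; colours give the groups and shapes the replicate number. In the middle panel the sum of *Lrat*, *Reln* and *Colec11* is 326.0 to 527.0 without and 95.9 to 168.9 with tumours, and the endothelial sum also has groups that do not overlap.

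Of 26 other stellate cell genes, 13 passed the filter in TIM4+CD206+ and 19 in TIM4+CD206hi KCs, and *Gfap*, *Hhip* and *Bmp10* were listed at 0 in all 6 samples of the former. *Colec10*, the collectin that pairs with *Colec11*, fell in TIM4+CD206hi KCs, from 6.05 to 7.56 down to 4.68 to 5.04 (-2.12 ± 0.40, adjusted p = 0.0202). The list's median difference was -0.04 in that subset and 0.17 in TIM4+CD206+ KCs. In TIM4+CD206+ KCs *Steap4* and *Ednrb* were not called in the main fit (adjusted p = 0.143 and 0.249, limma), and the *Ednrb* groups overlapped. They were called higher only with the samples paired by replicate number (adjusted p = 0.0394 and 0.0280). That pairing comes from the data and not from a label.

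Among 39 other matrix genes, 29 and 32 were tested. In TIM4+CD206hi KCs *Timp3*, an inhibitor of matrix metalloproteinases, fell from 13.31 to 13.88 down to 11.85 to 12.61 (-1.55 ± 0.26, adjusted p = 0.0135), and *Col6a2*, a chain of the microfibrillar type VI collagen, rose from 4.19 to 4.74 up to 5.72 to 6.65 (1.57 ± 0.30, adjusted p = 0.0228). In TIM4+CD206+ KCs *Timp1*, another inhibitor of the family, rose from 4.63 to 5.30 up to 6.22 to 6.36 (1.42 ± 0.24, adjusted p = 0.0176). *Fn1* (1.54) and *Col14a1* (1.07) had overlapping groups there and were not called in the main fit (adjusted p = 0.175 and 0.194, limma). Only the fit paired by replicate number, a pairing taken from the data, called them (adjusted p = 0.00434 and 0.0294). In TIM4+CD206hi KCs *Timp1* differed by 1.43 ± 0.40 (adjusted p = 0.0848). The medians of the list were 0.28 and 0.03, in TIM4+CD206hi and TIM4+CD206+ KCs.

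Of 18 genes of mural cells and portal fibroblasts, 13 were tested in each subset and 1 rose in each. It was *Entpd2*, an ectonucleotidase of portal fibroblasts, in TIM4+CD206+ KCs (4.31 to 4.6 against 5.10 to 5.54, 0.95 ± 0.20, adjusted p = 0.0402) and *Tpm2*, a muscle tropomyosin, in TIM4+CD206hi KCs (6.19 to 6.55 against 7.22 to 8.00, 1.28 ± 0.27, adjusted p = 0.0316).

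The last list held 21 ligands, receptors and handling proteins that act on stellate cells or on their products, and 17 and 20 were tested. Of these, 2 rose in TIM4+CD206+ KCs and 4 in TIM4+CD206hi KCs, and none was called lower (1 and 2 had a difference below 0 with an unadjusted p under 0.05). *Tgfbr1*, a TGF-β receptor, rose from 9.14 ± 0.33 to 10.34 ± 0.24 (SD, n = 3) in TIM4+CD206+ and from 11.25 ± 0.19 to 12.09 ± 0.12 in TIM4+CD206hi KCs (adjusted p = 0.0298 and 0.0263, limma). *Stra6*, a membrane protein of vitamin A uptake, had the same value of 4.23 in the 3 tumour-free TIM4+CD206+ samples and 5.53 to 6.12 in the tumour-bearing ones (1.50 ± 0.21, adjusted p = 0.00685), and rose from 3.50 ± 0.41 to 5.34 ± 0.36 in TIM4+CD206hi KCs (1.84 ± 0.28, adjusted p = 0.00826). Equal low values like the 4.23 can come from few or no reads, so the spread and size of that difference are uncertain. *Vldlr*, a receptor for reelin, and *Edn1*, the vasoconstrictor endothelin-1, rose in TIM4+CD206hi KCs by 1.56 ± 0.22 and 1.57 ± 0.34 (adjusted p = 0.00577 and 0.0347).

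The level of each transcript relative to other genes of its sample was then set side by side for the subsets, with no test between the tables. Ranked by value per kilobase of exon among the 24632 genes with a length, *Dcn* stood at percentiles 81.6, 76.0 and 79.1 in tumour-free TIM4+CD206hi samples and at 66.8, 62.6 and 65.9 in tumour-free TIM4+CD206+ samples, all of the former above all of the latter. *Lrat* (53.2 to 55.4 against 44.2 to 47.3) and *Rgs5* (51.9 to 56.7 against 47.8 to 51.0) were also higher in every tumour-free TIM4+CD206hi sample. *Col1a1*, *Col1a2*, *Des* and *Pdgfrb* were lower in every one, for *Pdgfrb* at 44.0 to 47.4 against 56.3 to 59.1, and *Col3a1*, *Reln* and *Colec11* overlapped. Thus 3 of 10 were higher and 4 lower, where 24.6% and 32.2% of the 12991 genes with a length and tested in both tables were, shares near those of the members.

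In tumour-bearing livers the distance had narrowed for *Dcn*, at 61.5 to 64.1 in TIM4+CD206hi against 59.1 to 63.0 in TIM4+CD206+ samples. *Lrat* was the only member still higher in every TIM4+CD206hi sample, by 43.5 to 47.4 against 43.0 to 43.1, and *Col1a1*, *Reln*, *Des*, *Pdgfrb* and *Colec11* were lower in every one. The shares of the same 12991 genes were 34.1% higher and 41.8% lower. Of the 25124 genes listed, 7370 had 1 constant value in all TIM4+CD206+ samples and 5764 in all TIM4+CD206hi samples. The ranking includes those of them with an exon length. Among only the genes past the filter in both tables, the members' median percentiles in tumour-free samples ran from 0.50 for *Col1a1* to 60.4 for *Dcn* in TIM4+CD206hi KCs and from 0.30 for *Reln* to 42.1 for *Colec11* in TIM4+CD206+ KCs.

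**Figure D4:**
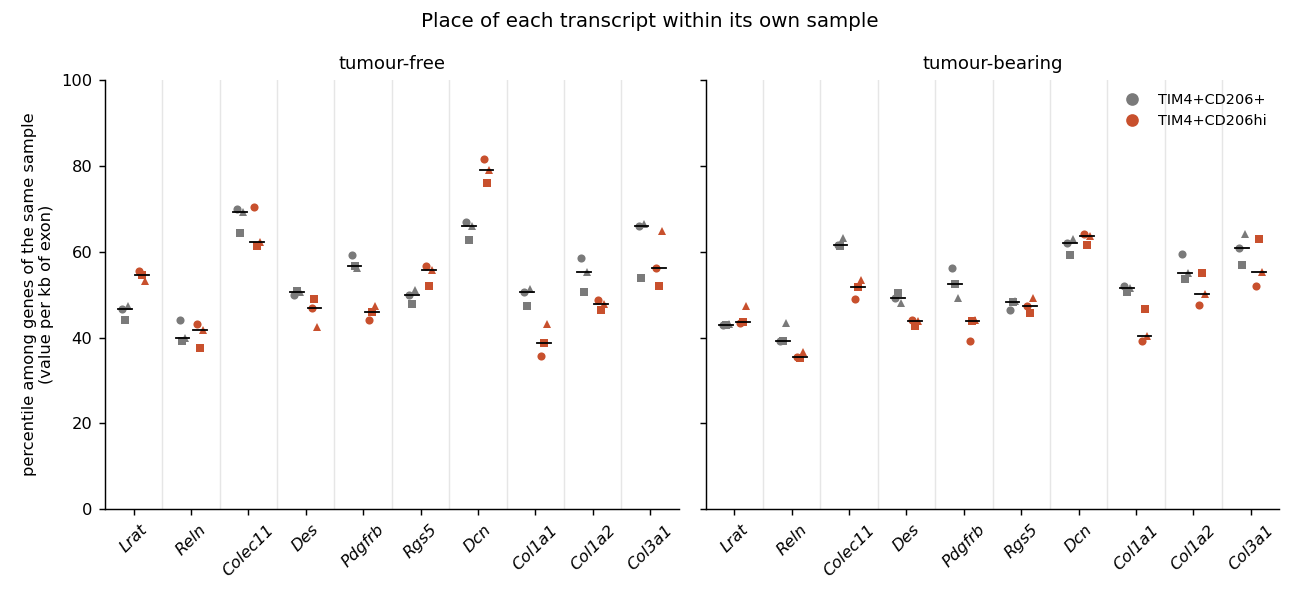
Percentile of each transcript among all genes of the same sample, by value per kilobase of exon, in tumour-free (left) and tumour-bearing (right) livers; grey, TIM4+CD206+ KCs; red, TIM4+CD206hi KCs; 3 samples each, bars at the median. *Dcn*, *Lrat* and *Rgs5* are higher in every tumour-free TIM4+CD206hi sample, and with tumours this holds for *Lrat* alone.

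A second scale, the value minus the median of the 11 KC markers in the same sample, gave another picture for some genes, since most genes lie higher on it in TIM4+CD206hi KCs. On it 6 members were higher and 0 lower in every tumour-free TIM4+CD206hi sample, against 51.8% and 0.593% of the same 12991 genes, and 7 and 0 in tumour-bearing ones, against 84.5% and 2.61%. The median of all 13110 genes tested in both tables differed by 1.25 and 1.75 between the subsets on this scale. Relative to that median, tumour-free TIM4+CD206hi samples had more *Lrat* (2.64), *Dcn* (2.44) and *Rgs5* (1.96) and less *Col1a1* (-1.55) and *Pdgfrb* (-1.43), and the other 5 lay between -0.49 and 0.84. In tumour-bearing samples the excess of *Lrat*, *Dcn* and *Rgs5* was 1.22, 0.92 and 0.76. Both scales placed these 3 genes higher in tumour-free TIM4+CD206hi KCs, but both are made from the same values. On the second scale 6.51%, 8.09% and 13% of genes had a larger tumour-free difference than *Lrat*, *Dcn* and *Rgs5*. In tumour-bearing samples the shares were 19.4%, 25.9% and 29.6%. The endothelial markers were higher in TIM4+CD206hi KCs too, as given above, and a link was not tested.

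The order of the members also differed between the groups, as levels per kilobase (log2). In tumour-free TIM4+CD206hi KCs *Dcn* led at 8.38 ± 0.30 (SD, n = 3) and stood apart from *Colec11* (6.67 ± 0.62), which overlapped *Col3a1* (5.61 ± 0.92), followed by *Rgs5* (5.2), *Lrat* (5.14), *Col1a2* (3.75), *Des* (3.36), *Pdgfrb* (3.28), *Reln* (2.12) and *Col1a1* (1.73). With tumours *Dcn* (6.70 ± 0.17) overlapped *Col3a1* (5.74 ± 0.87), and *Colec11* (4.85), *Col1a2* (4.72), *Rgs5* (4.01), *Lrat* (3.38), *Des* (3.06), *Pdgfrb* (2.78) and *Col1a1* (2.67) each overlapped the next down to *Col1a1*, which stood above *Reln* (0.98). Among TIM4+CD206+ samples *Colec11* (5.80 ± 0.39), *Dcn* (5.38 ± 0.28) and *Col3a1* (4.86 ± 1.12) led without tumours, each overlapping the next, and kept that order with tumours (5.02, 4.92 and 4.77). *Reln* was lowest in both TIM4+CD206+ groups (0.72 and 0.59).

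*Id3* deletion left the 10 transcripts at levels that the test did not separate. *Dcn* was at 9.13, 9.02 and 9.57 in Id3f/f and at 8.88 and 8.96 in Clec4fCreId3f/f samples, both of the latter below all of the former, and the difference of -0.32 ± 0.15 did not pass (adjusted p = 0.238). It was -0.15 without the third Id3f/f sample, which had the highest value (adjusted p = 0.341). *Rgs5* was at 6.55, 6.69 and 7.03 against 6.79 and 6.83 (0.06 ± 0.12, adjusted p = 0.832). *Lrat* (5.37 to 5.45 against 5.45 and 5.45), *Reln* (4.12 to 4.15 against 4.14 and 4.2) and *Colec11* (6.73 to 6.83 against 6.79 and 6.85) had overlapping groups.

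The collagens were low in these samples and nearly equal between them, *Col1a1* at 4.06 to 4.19, *Col1a2* at 3.79 to 3.85 and *Col3a1* at 6.02 to 6.13 over all 5. *Des* was at 4.28 to 4.43 and *Pdgfrb* at 6.25 to 6.45. By limma 0 of 10 were called, against 3.37% of the 12833 genes tested called lower and 3.08% higher, and 0 had an unadjusted p under 0.05, which 23.6% of all genes had. The *Dcn* groups, 1 of 10, were lower without overlap, against 21.7% of all genes (20.2% in the higher direction). The values have the features of DESeq2's regularized log, which pulls values of genes with few reads towards the gene's mean, so these small standard errors do not bound the change in RNA.

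**Figure D5:**
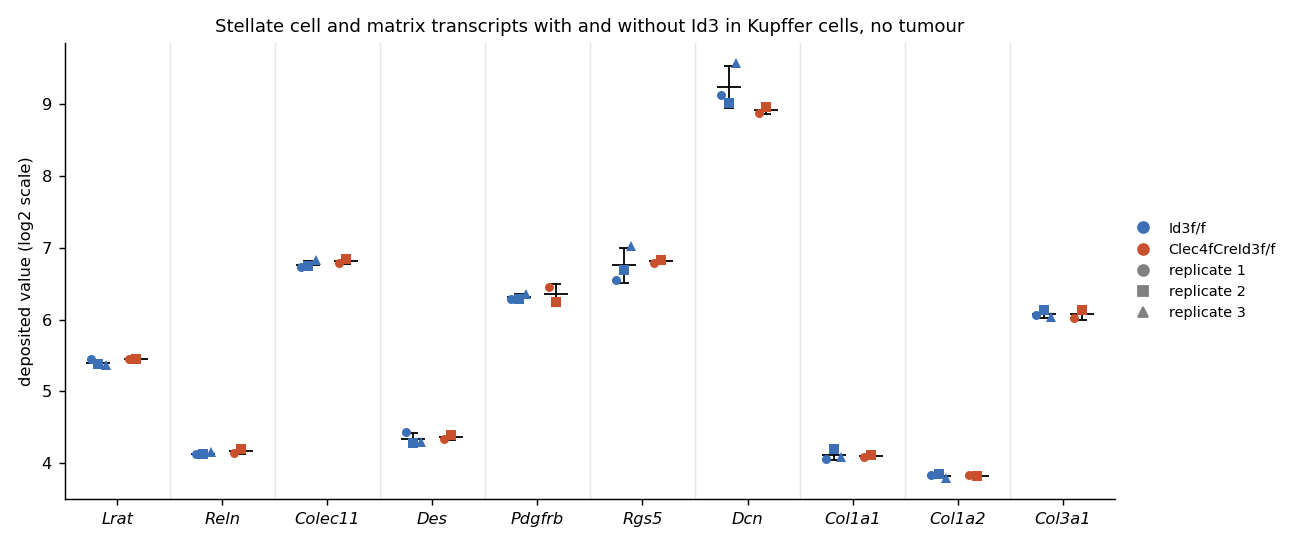
Deposited log2-scale value of each transcript in 3 Id3f/f (blue) and 2 Clec4fCreId3f/f (red) samples without tumours; shapes give the replicate number and black bars the mean ± SD. *Dcn* (9.02 to 9.57 against 8.88 and 8.96) is the only transcript whose groups do not overlap.

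The order of the members per kilobase was the same in both genotypes, *Dcn*, *Colec11*, *Rgs5*, *Pdgfrb*, *Col3a1*, *Lrat*, *Des*, *Col1a1*, *Col1a2* and *Reln*. It ran from 8.28 to 0.59 (log2) in Id3f/f samples, with no overlap between neighbours. Before division by exon length, *Reln* (4.12 to 4.15) overlapped *Col1a1* (4.06 to 4.19) there and lay above *Col1a2* (3.79 to 3.85). The last place of *Reln* thus rests on its exon length, 11699 bases against 5930 and 5348. The spread of such low values may be too small, so the lack of overlap does not establish a ranking of RNA levels. The endothelial sum was 17636 to 21440 and 18288 to 18420, within 1 range, and the hepatocyte sum 79025 to 105919 and 81605 to 87798. Single markers were called in both lists, 1 of 17 endothelial markers higher and 1 lower and 2 of 17 hepatocyte markers higher, and of the 11 KC markers 3 were called higher and 2 lower. The third Id3f/f sample, with the highest *Dcn*, *Rgs5* and *Colec11* of its group, also had the highest endothelial and hepatocyte sums. The part of those cells' RNA in its values was not tested.

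Of the 4 further lists of stellate, matrix, mural and signalling genes, the matrix list held the calls with *Id3* deletion. *Sparc*, a secreted collagen-binding glycoprotein, fell from 11.77 to 12.12 down to 11.32 and 11.42 (-0.55 ± 0.11, adjusted p = 0.0228), and *Plod1*, a lysyl hydroxylase that modifies collagen chains, rose from 12.74 to 12.91 up to 13.12 and 13.26 (0.38 ± 0.09, adjusted p = 0.0376), among 26 tested. No gene was called by limma among 20 other stellate genes, 9 mural and portal fibroblast genes and 15 signals, of which 3, 0 and 2 had an unadjusted p under 0.05. The genes with the largest differences in each of these were *Ecm1* (-0.31, adjusted p = 0.0666), *Vipr1* (0.16) and *Steap4* (0.14), then *Kcnj8* (-0.20), *Myl9* (-0.14) and *Acta2* (-0.10), and *Rdh10* (0.37, adjusted p = 0.063), *Tgfb1* (0.31, adjusted p = 0.059) and *Pdgfc* (-0.21). *Id3* deletion and sex cannot be told apart in any of them.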

How the data were processed

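Bulk RNA-seq of 17 sorted KC samples was analysed from 3 deposited tables. Per the submitters' processing notes, STAR 2.7.10a, HTSeq and DESeq2 were used with mm10. The deposited log2 values, which look like the regularized log of DESeq2, were made by the authors separately for each table, although the headers name another unit. A count model could not be used, and the depth of each library is unknown, so no counting error can be given.

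Genes with at least log2 of 10 in as many samples as the smaller group were tested with limma 3.58.1 (R 4.3.3, trended variance), with Benjamini-Hochberg adjustment over all genes tested and calls at an adjusted p under 0.05. The fit was tested on simulated data. Tables and plots were made with Python 3.11.15, numpy 2.4.6, pandas 2.3.3 and matplotlib 3.10.9. The 10 genes and all gene lists were chosen with earlier results of these data known. Named from 4 further lists were genes called with groups that do not overlap, or else the 3 with the largest differences, and genes that only the paired fit called were named after their values were seen. A listed gene is not reported here. The 10 genes most like each of 2 member means were also named. Groups came from the labels. In TIM4+CD206+ samples, deviations from the group means correlated between samples of the same replicate number (r = 0.35, 0.56 and 0.15). The main fit had no pairing, and an alternative fit paired the samples by these numbers. This pairing comes from the data and not from a label. Per-kilobase values used exon lengths of 24632 genes from GENCODE on GRCm38, an earlier release than that of the files, and promoters came from RefSeq (GRCm38.p6). Alternatives were other filters, no variance trend, median centring, quantile normalization, a replicate block and leaving out each sample.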

Additional observations from a re-analysis of the deposited data

How the results depend on the processing

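Among the 10 transcripts no called difference reversed under any alternative run. In TIM4+CD206hi KCs 3 were called in the analysis as reported, 5 after quantile normalization (*Reln*, adjusted p = 0.0421, and *Rgs5*, adjusted p = 0.0243, were added), 4 after median centring or without the variance trend (*Rgs5* added), and 1 to 5 when each sample was left out. In TIM4+CD206+ KCs 0 were called, or 0 to 2 with a sample left out, and with *Id3* deletion 0 under every alternative. Differences that did not pass changed sign for *Col3a1* (-0.74 to 0.26 in TIM4+CD206+ and -0.34 to 0.63 in TIM4+CD206hi KCs), *Reln* (-0.53 to 0.29) and *Col1a2* (-0.01 to 0.68) in TIM4+CD206+ KCs and *Des* in TIM4+CD206hi KCs (-0.77 to 0.09). With *Id3* deletion they did so for *Col1a1* (-0.04 to 0.02), *Col1a2* (-0.03 to 0.01), *Col3a1* (-0.05 to 0.05), *Pdgfrb* (-0.06 to 0.14) and *Rgs5* (-0.05 to 0.19). The counts of 3 and 1 members with a higher percentile in TIM4+CD206hi KCs were the same under both alternatives.

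Over all genes, calls numbered 469 in TIM4+CD206+ KCs (231 to 1022 with a sample left out), 1053 in TIM4+CD206hi KCs (600 with a mean of at least log2 of 50, where fewer genes were tested, and 579 to 3634 with a sample left out) and 827 with *Id3* deletion (477 with no filter and 17 to 1850 with a sample left out). Median centring and quantile normalization moved the median difference of all genes in TIM4+CD206hi KCs from 0.03 to -0.13 and -0.11, and quantile normalization moved its calls from 295 lower and 758 higher to 518 and 664. With *Id3* deletion, median centring moved them from 432 lower and 395 higher to 550 and 328. The causes were not tested.

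With the replicate number as a block, 1026 genes were called in TIM4+CD206+ KCs, against 469 in the main fit, which ignored pairing. Of the 10 transcripts 0 were called in either, *Lrat* having an adjusted p of 0.0572 with the block (limma). In this subset deviations correlated between samples of the same number. Elsewhere the samples shared only a number (r of -0.05, -0.13 and -0.05 in TIM4+CD206hi KCs, -0.07 and -0.10 in the *Id3* samples). There the replicate block gave 909 and 2089 calls, with 2 and 0 of the 10 transcripts, *Colec11* in TIM4+CD206hi KCs having an adjusted p of 0.0514.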
